A study of Canis lupus familiaris with 21 samples.

Results

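The genes described are ABCA1 and 7 other genes of cholesterol handling, ABCG1, NR1H3, APOE, MYLIP, SREBF2, HMGCS1 and SQLE, which are 8 of the 21399 genes counted in tissue of canine cutaneous histiocytoma (CCH). CCH is a skin tumor of dogs that arises from Langerhans cells, the antigen-presenting cells of the epidermis, and that often regresses by itself while lymphocytes enter it. ABCA1 was chosen because its level differed between the lymphocyte-enriched groups 3 and 2b. The other genes belong to the same pathway, and all 8 were chosen with earlier results of these data known. All 8 genes had 1 entry each in the count tables, and all 8 passed the filter on low counts in every comparison.

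Cells rid themselves of cholesterol through the liver X receptors (LXR), nuclear receptors that bind oxidized cholesterol and, together with RXR, turn on their target genes. NR1H3 encodes LXR alpha. Its best known targets are ABCA1 and ABCG1, which pump cholesterol out to lipoproteins, APOE, an apolipoprotein secreted by macrophages among other cells, and MYLIP, a ubiquitin ligase that lowers lipoprotein uptake. The opposite branch is run by SREBF2, which encodes SREBP2, a factor released from the endoplasmic reticulum when sterols are low. SREBP2 turns on synthesis enzymes such as HMGCS1, at the start of the mevalonate pathway, and SQLE, which oxidizes squalene. In macrophages and other phagocytes, which take in cholesterol with cell debris, the LXR branch is prominent.

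RNA of 21 formalin-fixed, paraffin-embedded tumors or tumor areas from privately owned dogs of differing breed, age and sex was measured by QuantSeq 3′ sequencing, which reads polyadenylated transcripts near their 3′ ends. Group 1 held 5 tumor cell-enriched samples of stage 1, group 2a 5 tumor cell-enriched samples of stage 2, group 2b 6 lymphocyte-enriched samples of stage 2 and group 3 5 lymphocyte-enriched samples of stage 3, with stages after Cockerell and Slauson. No tumor had been treated for the study, and in group 2b 4 of the 6 samples were pools of several dogs while all other samples came from 1 dog each. Stage 2 areas were punched from the tissue blocks after microscopy, so every sample still mixed several cell types. Between 2113393 and 3559404 reads were counted per sample, with a median of 2514859. DV200, the percentage of RNA fragments over 200 nucleotides, was lowest in group 1 with 68.5% ± 2.46 and higher elsewhere, with 73.7% ± 2.69 for group 2a, 74.6% ± 1.73 for group 2b and 73.2% ± 2.09 for group 3 (mean ± SD over the samples of each group). The RNA quality number, a second measure in the study's sample table, was not matched between the groups. It was mostly higher in group 3 than in group 2b, and in group 2a than in group 1, with overlap. Values below are normalized counts, the raw count divided by a size factor of the sample.

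The labels of the areas were checked with cell type markers. The summed normalized count of the T cell markers lay between 56.7 and 2075 in groups 1 and 2a and between 3126 and 5033 in groups 2b and 3, and 9 of 9 tested T cell markers and 5 of 6 B cell markers were higher in the lymphocyte-enriched samples. Macrophage markers moved the same way in part, since 5 of 9 were higher, among them MERTK and the complement genes C1QA, C1QB and C1QC. The other 4, CD68, CD163, CSF1R and MRC1, were not called, with log2 fold changes of 0.45, 0.34, -0.19 and -0.56. The summed macrophage markers ranged from 2448 to 9909 in group 1, 2391 to 6467 in group 2a, 4661 to 9255 in group 2b and 5443 to 10570 in group 3. Of these markers, MARCO had a median of 0 normalized counts in groups 1 and 2a. CD1A6, a dog gene related to the Langerhans cell marker CD1a and the only CD1 gene on the marker lists, did not pass the filter on low counts in any comparison. Other CD1 genes were not looked at. Of the CCH and antigen-presenting cell markers, to which CD1A6 belongs, 7 were tested between the area types. CDH1 was lower in the lymphocyte-enriched samples (log2 fold change -0.92), and the other 6 were not called. Their sum ranged from 3808 to 5232 in group 1, 5244 to 5753 in group 2a, 3787 to 6794 in group 2b and 3768 to 6269 in group 3. The markers of this list thus did not separate the 2 kinds of area. In bulk tissue, fewer cells of a type and less RNA per cell cannot be told apart, and this holds for every value that follows.

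**Figure D1:**
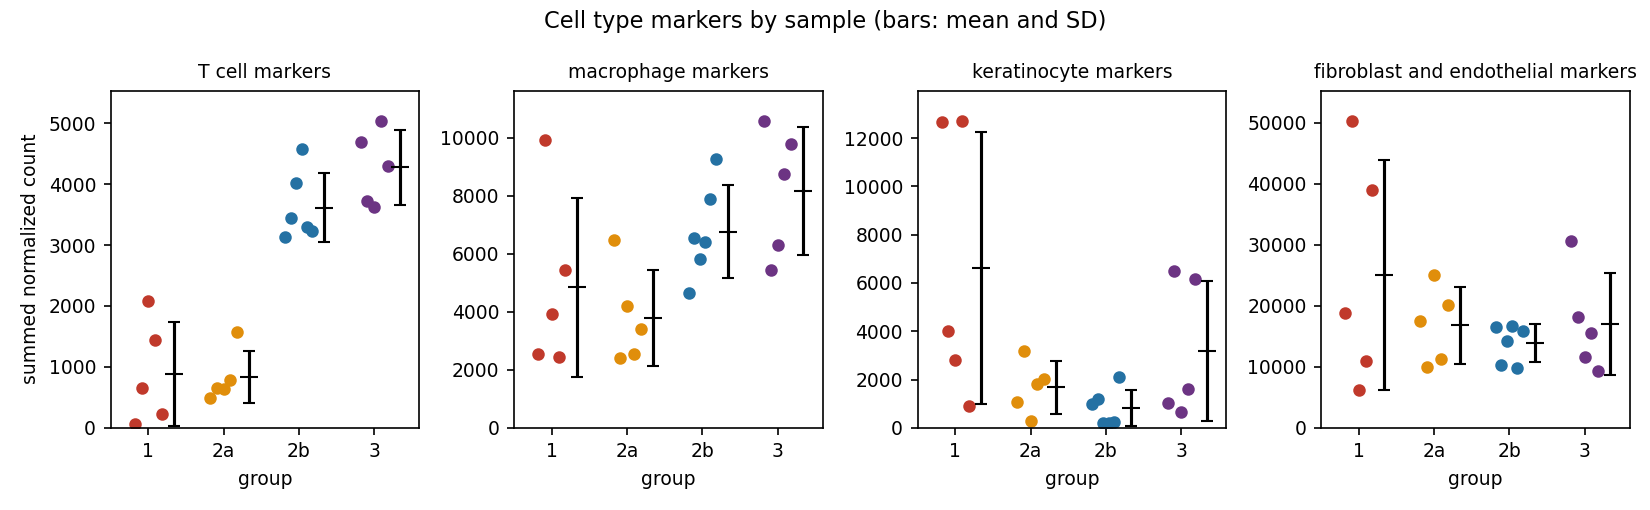
Summed normalized counts of the marker genes of 4 cell types in each of the 21 samples, by group, with linear axes from 0. Points are samples and bars give mean and SD; T cell markers separate groups 2b and 3 from groups 1 and 2a, while macrophage, keratinocyte and fibroblast and endothelial markers overlap between the groups.

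Lymphocyte-enriched samples, groups 2b and 3, were compared with tumor cell-enriched samples, groups 1 and 2a, to ask in which kind of area each gene was expressed. This contrast takes the mean of groups 2b and 3, so the difference between them by which ABCA1 was chosen does not enter its size. NR1H3, ABCG1 and APOE were higher in the lymphocyte-enriched samples and SREBF2 was lower, at an adjusted p of at most 0.05 in edgeR's quasi-likelihood test over 12505 genes. That is 3 of 8 genes higher and 1 of 8 lower, beside 15.2% of all tested genes called higher and 14.3% called lower. Their median log2 fold change was 0.38, and that of all tested genes was 0.01. Since stage 1 tumors gave only tumor cell-enriched samples and stage 3 tumors only lymphocyte-enriched ones, area and stage cannot be told apart outside stage 2.

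NR1H3 (chromosome 18, 42758228 to 42771525, UU_Cfam_GSD_1.0) had the widest separation of the 8 genes. It had 11.3, 39.3, 10.9, 19.7 and 7.6 normalized counts in the 5 samples of group 1 and 13.0, 4.2, 56.7, 11.7 and 59.1 in those of group 2a. In group 2b it had 63.5, 365.8, 274.6, 341.6, 376.8 and 282.4, and in group 3 it had 316.8, 112.2, 48.5, 450.3 and 213.6. All 6 samples of group 2b lay above every tumor cell-enriched sample, and replicate 3 of group 3 was the 1 lymphocyte-enriched sample of 11 that did not. NR1H3 was 11.1-fold higher in lymphocyte-enriched samples, a log2 fold change of 3.47 (SE 0.46, edgeR adjusted p = 9.42e-06). The difference was 3.28 (SE 0.63) between the stage 2 areas, group 2b minus group 2a, and 3.66 (SE 0.66) for group 3 minus group 1, both given as values only.

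The efflux pump ABCG1 (chromosome 31, 36438763 to 36508785) followed NR1H3 with a smaller difference. Its normalized counts were 104.9, 204.1, 110.2, 144.1 and 95.1 in group 1, and 109.5, 65.6, 77.8, 53.8 and 187.9 in group 2a. They were 212.9, 165.7, 372.4, 282.2, 331.6 and 281.6 in group 2b, and 534.6, 201.9, 122.2, 367.7 and 140.3 in group 3. Of the 11 lymphocyte-enriched samples, 7 lay above every tumor cell-enriched sample, and group 3 held both the highest and the lowest lymphocyte-enriched value. ABCG1 was 2.39-fold higher in lymphocyte-enriched samples, a log2 fold change of 1.26 (SE 0.26, edgeR adjusted p = 0.000973).

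APOE (chromosome 1, 111234400 to 111237204) varied widely within groups 2a, 2b and 3. It ranged from 111.1 to 255.7 normalized counts in group 1, while group 2a had 227.3, 175.1, 1103, 235.0 and 288.6. Group 2b had 465.8, 865.7, 866.6, 1860, 203.0 and 1085, and group 3 had 2022, 258.5, 853.6, 1191 and 683.8. The area types overlapped: 3 of 11 lymphocyte-enriched samples lay above every tumor cell-enriched sample, replicate 3 of group 2a was as high as most lymphocyte-enriched samples, and the lowest samples of groups 2b and 3 were near the level of group 1. APOE was 3.33-fold higher in lymphocyte-enriched samples, a log2 fold change of 1.74 (SE 0.39, edgeR adjusted p = 0.00185). The same 3 genes stayed past the threshold when any 1 of the 21 samples was left out, with adjusted p at most 3.08e-05 for NR1H3, 0.00249 for ABCG1 and 0.00474 for APOE.

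Macrophages express NR1H3, ABCG1 and APOE, and their markers were partly higher in the same samples, as given above. The part of the macrophage content in these differences was not tested. Across the 21 samples, deviations from the group means on the log2(normalized count + 1) scale correlated with those of the summed macrophage markers with r = 0.47 for NR1H3, 0.40 for ABCG1 and 0.30 for APOE. Another list gave a higher r for each gene, the sebaceous gland and adipocyte markers for NR1H3 (0.49) and the fibroblast and endothelial markers for ABCG1 (0.46) and APOE (0.50). These points share their libraries, and the correlations are given as a description. Each sum is weighted toward its most abundant genes. In group 2b PLIN2 averaged 394.2 normalized counts, against 5.58 for PLIN1 and 6.49 for ADIPOQ of the same list. In group 1 COL1A1 averaged 15960, against 290.4 for PECAM1 and 264.1 for VWF. The 2 sums thus follow mainly PLIN2 and COL1A1, and say little of the rarer markers.

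On the synthesis side, SREBF2 (chromosome 10, 24409296 to 24489954) was lower in the lymphocyte-enriched samples. Its normalized counts were 262.7, 161.0, 306.9, 250.3 and 349.6 in group 1 and 477.8, 514.8, 202.2, 515.7 and 343.8 in group 2a, against a range of 202.3 to 263.1 in group 2b and 198.5 to 332.0 in group 3. Group 2a was thus the high group, and no lymphocyte-enriched sample lay outside the tumor cell-enriched range. The level in tumor cell-enriched samples was 1.35-fold that in lymphocyte-enriched ones, a log2 fold change of -0.44 (SE 0.16, edgeR adjusted p = 0.0406). The call held in 5 of 9 other settings. With DV200 as a covariate it was lost, at a log2 fold change of -0.30 and an adjusted p of 0.306. Limma (adjusted p = 0.0727) and the replicate number as a block were also among the settings that lost the call. It was also lost without any 1 of 12 samples (group 1 replicates 1, 3 and 5, group 2a replicates 1, 2 and 4, group 2b replicates 1, 2 and 6, group 3 replicates 1, 2 and 4), with adjusted p between 0.0507 and 0.0842.

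The 2 synthesis enzymes did not pass the test. SQLE (chromosome 13, 23408709 to 23432884) had a log2 fold change of -0.64 (SE 0.25, edgeR adjusted p = 0.0536), with 7 of 11 lymphocyte-enriched samples below every tumor cell-enriched sample. It passed with DESeq2 (adjusted p = 0.0402), limma (0.0476) and upper-quartile factors (0.0499) and, with adjusted p between 0.0206 and 0.0461, without group 1 replicate 2, group 2a replicate 3 or 5, group 2b replicate 2 or 3, or group 3 replicate 5. HMGCS1 (chromosome 4, 67551264 to 67571669) had a log2 fold change of -0.03 (SE 0.21, edgeR adjusted p = 0.92).

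MYLIP and ABCA1 did not pass either. MYLIP (chromosome 35, 16555131 to 16574958) had a log2 fold change of 0.39 (SE 0.16, edgeR adjusted p = 0.074), and 0.48 with an adjusted p of 0.00737 without replicate 5 of group 3, its lowest sample, and it also passed with the RNA quality number as a covariate (adjusted p = 0.0474) and with genes reaching a count of 10 in every sample (0.05). ABCA1 (chromosome 11, 61125735 to 61254053) had a log2 fold change of 0.38 (SE 0.27, edgeR adjusted p = 0.312), its mean being 707.4 ± 326.4 (SD, n = 11) in lymphocyte-enriched and 480.2 ± 290.5 (SD, n = 10) in tumor cell-enriched samples. Unlike the other LXR genes, ABCA1 had lymphocyte-enriched samples in separate ranges by stage, which are described next as values.

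**Figure D2:**
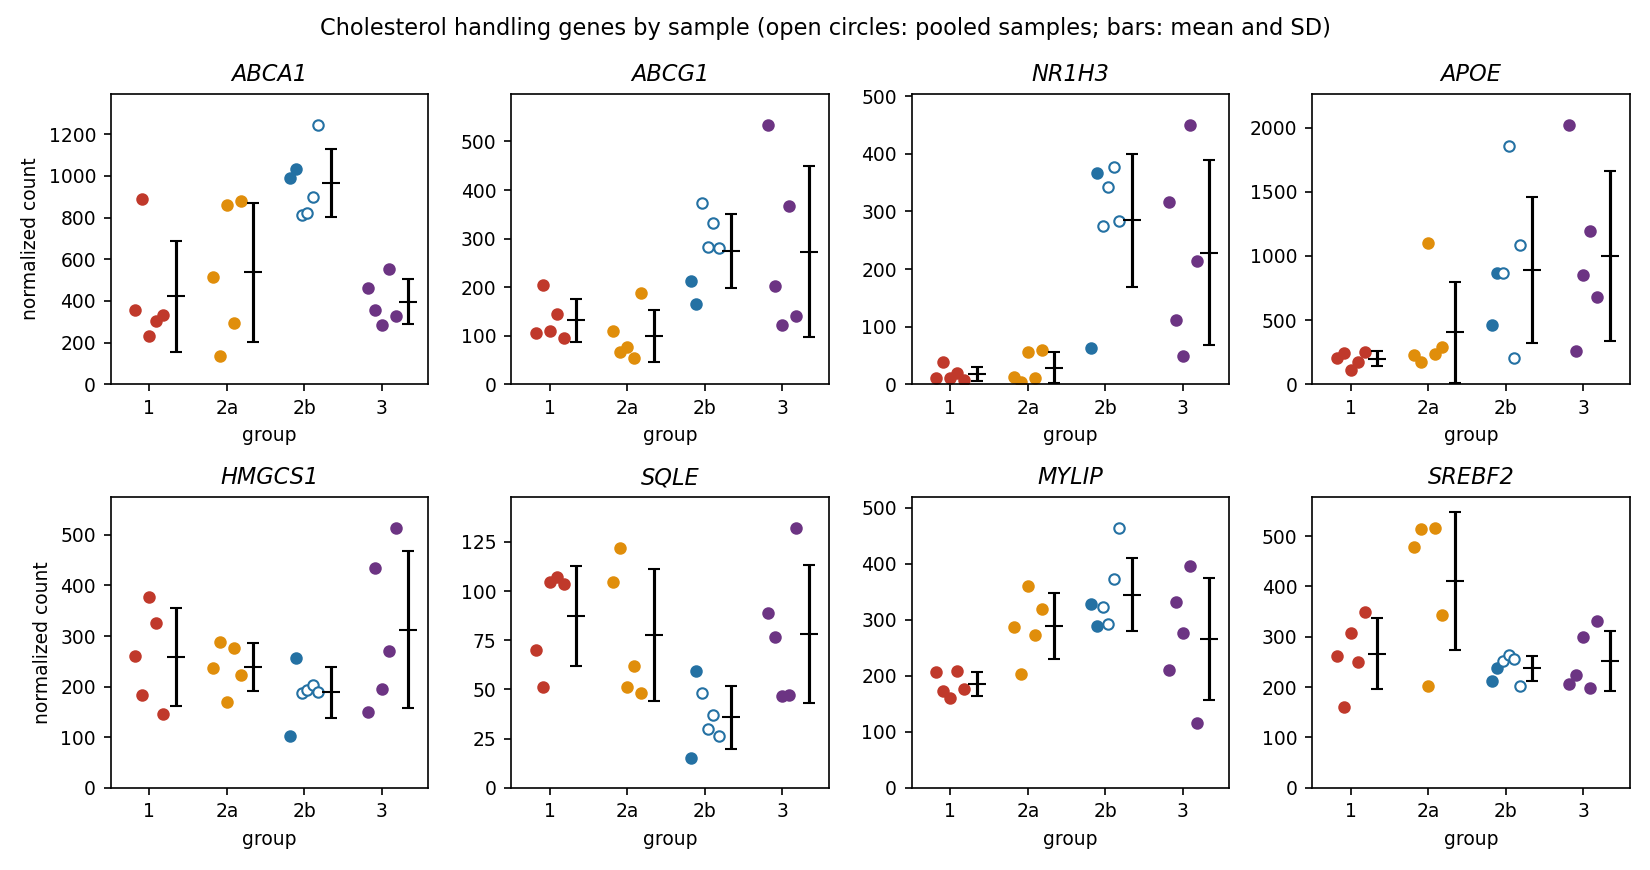
Normalized counts of the 8 genes in each sample of groups 1, 2a, 2b and 3, with a linear axis from 0 for each gene. Filled circles are samples of 1 dog, open circles are pools, and bars give mean and SD; NR1H3 is low in groups 1 and 2a, with at most 59.1, and ABCA1 is high in all 6 samples of group 2b.

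For ABCA1, the comparison of group 3 with group 2b is what selected it, so its values are given without a test. ABCA1 had 989.6, 1031, 810.8, 822.2, 900.3 and 1245 normalized counts in group 2b and 460.6, 355.6, 286.1, 552.1 and 327.8 in group 3. The groups did not overlap, and the lowest of group 2b was above the highest of group 3. Groups that do not overlap in either direction were found for 2.11% of all genes tested in this comparison, and ABCA1 was the 1 of the 8 genes among them. The log2 fold change was -1.29 (SE 0.18), so that the level in group 2b was 2.45-fold that in group 3. It was -1.35 when the pools of group 2b were left out, and -1.26 when its 2 samples of single dogs were.

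ABCA1 stood at 357.2, 889.3, 231.3, 303.9 and 331.1 normalized counts in group 1 and at 516.8, 135.5, 862.0, 293.5 and 881.2 in group 2a. In the order of group means, group 2b came first with 966.6 ± 162.4 (SD, n = 6), followed by group 2a with 537.8 ± 333.6, group 1 with 422.5 ± 265.1 and group 3 with 396.5 ± 108.3 (SD, n = 5 each). Groups 2a, 1 and 3 overlapped widely, and 2 samples of group 2a and replicate 2 of group 1 lay in the range of group 2b. The log2 fold change was 0.84 (SE 0.37) for group 2b minus group 2a and -0.09 (SE 0.39) for group 3 minus group 1.

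The 7 other genes had group 3 and group 2b values that overlapped. The log2 fold changes of group 3 minus group 2b were -0.32 (SE 0.47) for NR1H3, -0.01 (SE 0.34) for ABCG1, 0.16 (SE 0.49) for APOE and -0.38 (SE 0.25) for MYLIP. With the RNA quality number as a covariate, the values were 1.16 for NR1H3, 0.65 for ABCG1 and 0.95 for APOE, so that the direction turned for NR1H3 and ABCG1, and -1.27 for ABCA1. As this number was mostly higher in group 3 than in group 2b, its effect and that of the group cannot be fully told apart. SREBF2 had a log2 fold change of 0.08 (SE 0.16), HMGCS1 of 0.72 (SE 0.29) and SQLE of 1.11 (SE 0.35). SQLE was at 14.9, 59.4, 48.4, 29.7, 37.2 and 26.1 normalized counts in group 2b and at 88.9, 76.4, 46.6, 47.4 and 132.0 in group 3, where 3 of 5 samples exceeded every sample of group 2b. The same was true of HMGCS1, with 149.9, 434.8, 195.0, 271.0 and 513.1 in group 3 and 101.8 to 256.6 in group 2b.

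Keratinocytes make cholesterol for the skin barrier, and the keratinocyte markers also had higher values in group 3. All 9 tested markers had a positive log2 fold change with a median of 1.67, and 0 of 9 passed edgeR's test, with 4 at an unadjusted p under 0.05 and 0 called by DESeq2 or limma. Their sum ranged from 185.7 to 2097 in group 2b and from 647.9 to 6505 in group 3. The group 3 samples with the highest HMGCS1, replicates 2 and 5, were those with the highest keratinocyte sums, 6505 and 6143, whereas replicate 1, second in SQLE with 88.9, had a keratinocyte sum of 1020. Deviations from the group means correlated with those of the keratinocyte sum with r = 0.54 for HMGCS1 and 0.12 for SQLE over the 21 samples, which share their libraries. The part of keratinocyte content in the values of HMGCS1 and SQLE was not tested.

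**Figure D3:**
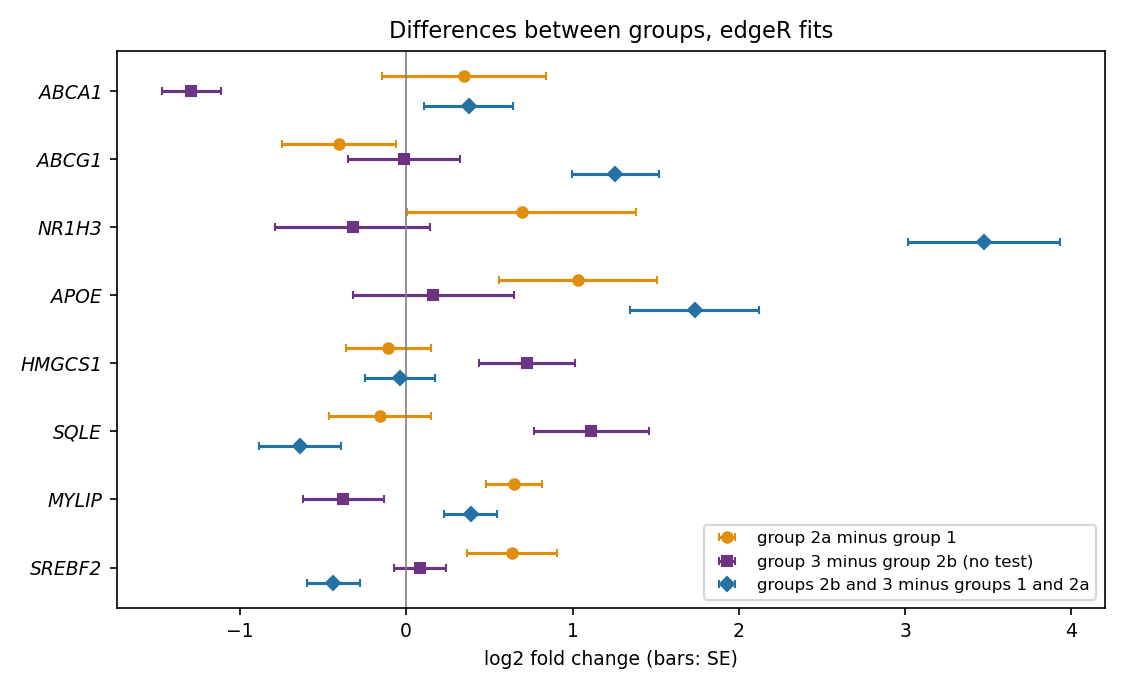
Log2 fold changes of the 8 genes with their standard errors from edgeR, for group 2a minus group 1, group 3 minus group 2b (shown as values without a test) and groups 2b and 3 minus groups 1 and 2a. NR1H3 reaches 3.47 between area types, and ABCA1 lies at -1.29 for group 3 minus group 2b, where NR1H3 lies at -0.32 and ABCG1 at -0.01.

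The comparison of group 2a with group 1 asked whether the genes changed in the tumor cell-enriched areas from stage 1 to stage 2. None of the 8 genes passed edgeR's test over 11200 genes, which called 0.527% of all genes. DESeq2 called 1 of the 8 and limma 0, and the shares of all genes that these 2 called are not given here. An unadjusted p under 0.05 was found for 2 of the 8 and for 17.9% of all tested genes. The median log2 fold change of the 8 genes was 0.49, and that of all tested genes was -0.015.

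MYLIP had the smallest p of the 8. It was at 206.9, 173.2, 161.2, 207.8 and 175.9 normalized counts in group 1 and at 287.6, 203.2, 361.0, 273.6 and 319.6 in group 2a. In group 2a 4 of 5 samples were above every sample of group 1, and replicate 2 was within its range. The log2 fold change was 0.65 (SE 0.17, edgeR adjusted p = 0.0865), and the DESeq2 adjusted p was 0.0195. With DV200 as a covariate the log2 fold change of MYLIP was 0.38, and DESeq2 was the only 1 of 11 other settings in which it passed. SREBF2 had 0.64 (SE 0.27, edgeR adjusted p = 0.239), with 3 of 5 group 2a samples above every group 1 sample.

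APOE had a log2 fold change of 1.03 (SE 0.48, edgeR adjusted p = 0.279), which fell to 0.23 without replicate 3 of group 2a and to 0.36 with DV200 as a covariate. NR1H3 had 0.69 (SE 0.69, edgeR adjusted p = 0.65) and ABCA1 0.35 (SE 0.49, edgeR adjusted p = 0.77), while ABCG1 had -0.41 (SE 0.34, edgeR adjusted p = 0.581). Both NR1H3 and ABCA1 turned negative with DV200 as a covariate, at -0.76 and -0.58. SQLE had -0.16 (SE 0.31, edgeR adjusted p = 0.834) and HMGCS1 -0.11 (SE 0.25, edgeR adjusted p = 0.866). The standard errors of ABCA1 and NR1H3 were wide enough that sizeable changes in either direction could not be told from none with 5 samples a group. Keratinocyte markers had lower values in group 2a, with a median log2 fold change of -2.08 and 0 of 9 positive, of which 0 were called by edgeR and 7 had an unadjusted p under 0.05 (DESeq2 2, limma 0).

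Within groups 1, 2a and 3, the samples with the most ABCA1 had much NR1H3 and little SREBF2. In group 2a, replicates 3 and 5 had 862.0 and 881.2 normalized counts of ABCA1 and 56.7 and 59.1 of NR1H3, while the other 3 samples had at most 516.8 and 13.0. The same 2 samples had the lowest SREBF2 of the group, 202.2 and 343.8, where the others had 477.8 to 515.7. In group 1, replicate 2 had the highest ABCA1, ABCG1 and NR1H3, 889.3, 204.1 and 39.3, and the lowest SREBF2, 161.0.

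In group 3 the same held, and in group 2b it held for SREBF2 but not for NR1H3. In group 3, replicates 4 and 1 had the highest ABCA1, 552.1 and 460.6, the highest NR1H3, 450.3 and 316.8, and the lowest SREBF2, 198.5 and 205.8. In group 2b, replicate 6 had the highest ABCA1, 1245, the highest MYLIP, 463.7, and the lowest SREBF2, 202.3, while its NR1H3 of 282.4 was in the middle of its group. Replicate 1 of group 2b had 989.6 normalized counts of ABCA1 with the lowest NR1H3 of its group, 63.5.

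Over all 21 samples, the deviations of ABCA1 from its group means correlated with those of NR1H3 with r = 0.74 (Spearman's rho 0.68), ABCG1 with 0.55, APOE with 0.43 and MYLIP with 0.41. With the synthesis genes the sign was negative, at -0.78 for SREBF2 (rho -0.77), -0.51 for SQLE and -0.38 for HMGCS1. Without the 2 samples farthest from the median of ABCA1, replicate 2 of group 1 and replicate 2 of group 2a, r was 0.64 for NR1H3 and -0.76 for SREBF2. Without the same 2 samples SQLE had -0.345 and HMGCS1 -0.338. For SREBF2 the value was -0.78 in the 10 tumor cell-enriched and -0.85 in the 11 lymphocyte-enriched samples. For NR1H3 it was 0.91 and 0.51. The other genes were also closer to no correlation in the lymphocyte-enriched samples. There SQLE had -0.205, HMGCS1 -0.192, APOE 0.282, MYLIP 0.449 and ABCG1 0.536. In the tumor cell-enriched samples they had -0.796, -0.6, 0.66, 0.698 and 0.696. All these genes were counted in the same libraries, and ABCA1 was chosen on part of these values, so the correlations are a description.

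Marker sums of other cell types moved with this pattern. The fibroblast and endothelial sum was led by COL1A1, as given above. The deviations of ABCA1 correlated with those of the summed fibroblast and endothelial markers with r = 0.66 and of the macrophage markers with 0.59, against 0.01 for the T cell markers, 0.015 for the B cell markers and -0.15 for the keratinocyte markers. Those of SREBF2 correlated with the fibroblast and endothelial sum with -0.55 and with the macrophage sum with -0.30. Replicate 2 of group 1 had the highest fibroblast and endothelial sum of all samples, 50260, and the highest macrophage sum of its group, 9909. The part of these cell types in the pattern was not tested.

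**Figure D4:**
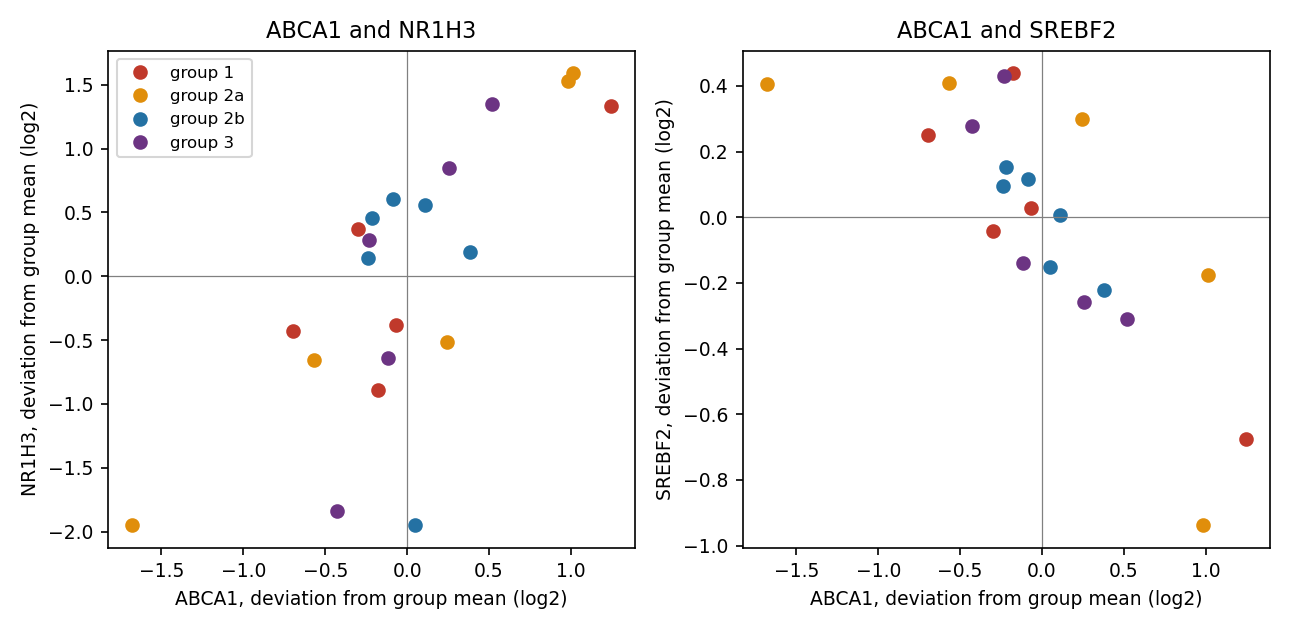
Deviation of each of the 21 samples from its group mean for ABCA1 (horizontal) and for NR1H3 (left) or SREBF2 (right), on the log2(normalized count + 1) scale, colored by group. NR1H3 rises with ABCA1 (r = 0.74) and SREBF2 falls with it (r = -0.78).

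Of 12504 other genes, the 5 with the pattern most like that of ABCA1 over the 21 samples, by Pearson's r on the log2(normalized count + 1) scale, were GGH (0.83), HEATR5A (0.80), SNX24 (0.78), SCG3 (0.78) and ARHGEF12 (0.78). When the group means were taken out first, a different list came first, MXRA5 (0.89), SHE (0.88), CD63 (0.87), ITGA9 (0.85) and GRN (0.85). Neither list held 1 of the 7 other cholesterol handling genes. NR1H3 ranked 142 and ABCG1 414 by the first measure, and SQLE ranked 12489, near the end of the list.

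To place the 8 genes in their pathway, 66 further genes in 5 lists were read from the same fits. In lymphocyte-enriched compared to tumor cell-enriched samples, 20 of 61 tested genes were called by edgeR, 10 higher and 10 lower, with a median log2 fold change of 0.14 over the 61. These shares were close to those of all genes given above, and the direction differed between the lists.

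Among LXR receptors, partners and targets, 3 of 13 were higher and 3 lower. CD5L, a secreted protein of tissue macrophages, had a log2 fold change of 4.55 (SE 0.65, edgeR adjusted p = 2.32e-05), with 215.3 to 1400 normalized counts in all 11 lymphocyte-enriched samples and 0 to 98.4 in the tumor cell-enriched ones. APOC1, an apolipoprotein gene that lies beside APOE on chromosome 1, was 12.2-fold higher (SE 0.50 on the log2 scale, edgeR adjusted p = 1.54e-05), and SMPDL3A, a secreted phosphodiesterase, had a log2 fold change of 1.26 (SE 0.44, edgeR adjusted p = 0.0331). CD5L and APOC1 are, like NR1H3, expressed in macrophages. RXRA, the partner receptor of LXR, was lower with -0.97 (SE 0.25, edgeR adjusted p = 0.00452), as was TTC39B with -0.48. NR1H2, the gene of the other LXR, had -0.69 (SE 0.28, edgeR adjusted p = 0.069) and was named after its value was seen.

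Of the lipoprotein uptake genes, 5 of 8 were higher and 1 lower. The scavenger receptor genes MSR1 (log2 fold change 2.09), STAB1 (1.70) and OLR1 (1.56), all known from macrophages or endothelium, were higher. SCARB1, a receptor for HDL, was lower by contrast, with a log2 fold change of -0.95 (SE 0.10, edgeR adjusted p = 1.46e-06). Its lowest tumor cell-enriched sample had 568.1 normalized counts, and its ranges were 262.3 to 341.6 in group 2b and 436.7 to 582.0 in group 3.

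Genes that control SREBP had 0 of 9 higher and 4 lower. These were SCAP (log2 fold change -0.77), the escort of SREBP out of the endoplasmic reticulum, AUP1 (-0.40) and UBXN4 (-0.34), of the degradation machinery of that compartment, and MBTPS1 (-0.39), the first protease that cuts SREBP. SREBF2, the factor itself, was lower too, as given above. Of the synthesis enzymes, 0 of 17 were higher and ACAT2 alone was lower, with -0.93 (SE 0.20, edgeR adjusted p = 0.00134). Among genes of lysosomal release, transfer and esterification, NCEH1 (0.52) and GRAMD1B (1.25) were higher and SOAT1 (-0.66), which esterifies cholesterol for storage, was lower, of 14.

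**Figure D5:**
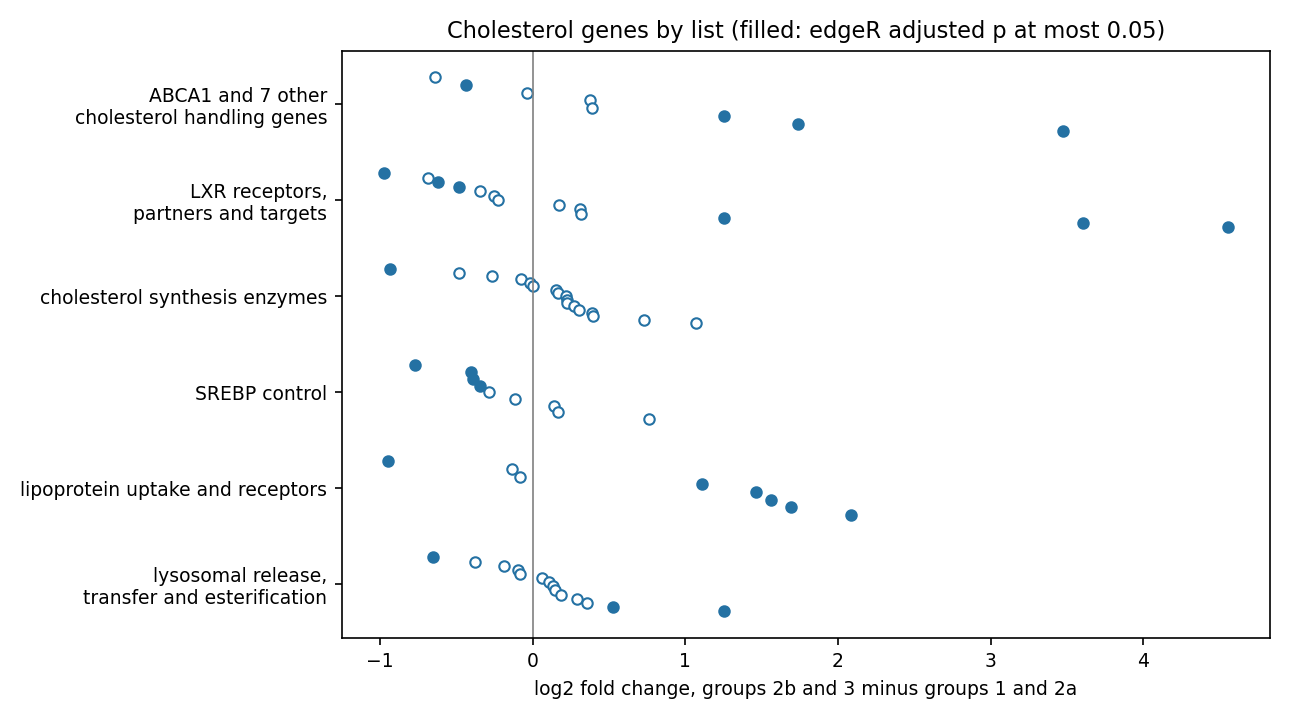
Log2 fold changes of groups 2b and 3 minus groups 1 and 2a for the 8 genes and for 5 lists of pathway genes; each circle is a gene, filled where edgeR's adjusted p was at most 0.05. The uptake list has 5 filled circles above 1, and the list of SREBP control has 4 filled circles, all below 0.

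Between groups 3 and 2b, 0 of 60 pathway genes passed edgeR's test, beside 0.111% of all genes called, 13 had an unadjusted p under 0.05 (13.1% of all tested genes), and DESeq2 called 2 and limma 1. Of the 16 synthesis enzymes tested, 0 passed and 14 had a positive log2 fold change, with a median of 0.39 against 0.01 for all tested genes, and the keratinocyte markers given above had higher values in the same group, whose part here was not tested. The smallest adjusted p in that list was 0.128, for HSD17B7, a ketosteroid reductase of the pathway, with a log2 fold change of 0.98 (SE 0.24, edgeR), and LSS, the lanosterol synthase, followed with 1.05 (SE 0.31, edgeR adjusted p = 0.195).

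Of the other lists, SCARB1 had 0.66 (SE 0.12, edgeR adjusted p = 0.0587), and STAB1 0.92 (SE 0.27, edgeR adjusted p = 0.193). SCARB1 passed with DESeq2 (adjusted p = 0.000166), limma (0.0445) and genes reaching a count of 10 in every sample (edgeR, 0.0396). All 5 of its group 3 samples lay above every group 2b sample. The same held for MVK, a synthesis enzyme with a log2 fold change of 1.115 (SE 0.34, edgeR adjusted p = 0.216). For OSBP all 5 group 3 samples lay below every group 2b sample. Groups that did not overlap in either direction were found for 2.11% of all tested genes. OSBP had -0.64 and CH25H, which makes an oxysterol that blocks SREBP, had -0.96, with edgeR adjusted p of 0.196 and 0.271. AUP1 (-0.34), INSIG2 (-0.30) and SCD (0.30) had edgeR adjusted p of 0.348 or more.

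Between groups 2a and 1, 0 of 60 pathway genes passed edgeR's test, 9 had an unadjusted p under 0.05 (17.9% of all tested genes), and DESeq2 called 1, GRAMD1B, and limma 0. GRAMD1B, a sterol transfer protein, had 1.80 (SE 0.55, edgeR adjusted p = 0.12), from a median of 6.61 to 19.4 normalized counts. INSIG2, which retains SREBP, had -0.58 (SE 0.18, edgeR adjusted p = 0.121) and SCAP 0.69 (SE 0.26, edgeR adjusted p = 0.196). FDPS had 0.71 and DHCR7 -0.74, SOAT1 had -0.52 and APOC1 1.49, with edgeR adjusted p between 0.163 and 0.316. LRP8 (0.44) had the smallest p of the uptake list, with an adjusted p of 0.406.

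The stage step was also compared between the area types, as group 3 minus group 2b less group 2a minus group 1. Of 61 pathway genes 1 passed edgeR's test, HSD17B7, beside 5.34% of all genes, with a difference of 1.37 (SE 0.37, edgeR adjusted p = 0.0353). Its normalized counts averaged 58.2 ± 20.0 (SD, n = 5) in group 1, 44.1 ± 9.89 (n = 5) in group 2a, 47.4 ± 6.7 (n = 6) in group 2b and 94.0 ± 33.0 (n = 5) in group 3. The call did not hold without any 1 of 11 samples (group 1 replicates 3 and 5, group 2a replicates 1, 3 and 4, group 2b replicates 2, 4, 5 and 6, group 3 replicates 2 and 5), with adjusted p between 0.0506 and 0.0704.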

How the data were processed

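The labels gave each sample's group and replicate number. According to the submitters' processing notes, reads were handled with cutadapt, STAR, featureCounts and DESeq2, against the UU_Cfam_GSD_1.0 assembly; versions, strand setting and treatment of reads matching several genes are not given in the sources used here. The authors deposited 2 tables, 1 per comparison, which hold, for every gene in each sample, the raw count and a signal, the normalized count (raw count divided by a size factor of 0.855 to 1.27). The log2 fold changes and p-values that the authors deposited there hold their own comparisons and were not used. Rows were matched by symbol after removing the numbered ending, and positions came from RefSeq of the same assembly, in which all 8 genes were found.

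Raw counts were tested with edgeR 4.0.16 (TMM, quasi-likelihood F-test, R 4.3.3) over all genes reaching a count of 10 in 5 or more of the fitted samples, with Benjamini-Hochberg adjustment and a threshold of 0.05. Group 2a was fitted with group 1 and group 3 with group 2b, as the study compared them; contrasts between area types used all 4 groups. Samples come from different dogs or pools, so p-values measure the spread between these, and counts of 3 or fewer are near the limit of the depth, for counting error only, since no molecular identifiers were named. Results were recomputed with limma 3.58.1 on log2(normalized count + 1), DESeq2 1.42.0, other size factors and filters, DV200 (from the labels; the study's sample table gives another value for replicate 5 of group 3) or the RNA quality number as covariates, the replicate number as a block, single-dog or pooled samples of group 2b only, and leaving out each sample. The genes, the pathway and marker lists and the tests were chosen with earlier results of these data known. Named are the 8 genes, in each list up to 4 called genes in each direction or else the 2 with the smallest p, and the 5 genes most like ABCA1; NR1H2 was added after its value was seen, and some genes under this rule are not reported here. The test was tried on simulated data. CDH5 was not analysed here. Python 3.11.15, numpy 2.4.6, pandas 2.3.3 and matplotlib 3.10.9 were used.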

Additional observations from a re-analysis of the deposited data

Results flagged for a closer look

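Of 32 sets of values (8 genes in 4 groups), 3 held a sample far from the rest of its group by Dixon's criterion, which chance meets in about 1 of 20 such sets. ABCA1 was at 889.3 normalized counts in replicate 2 of group 1, where the other 4 samples had 231.3 to 357.2. NR1H3 was at 63.5 in replicate 1 of group 2b, a single-dog sample, where the other 5 had 274.6 to 376.8, while ABCA1 in that sample was at 989.6. APOE was at 1103 in replicate 3 of group 2a, where the other 4 had 175.1 to 288.6. HSD17B7 was singled out because its change from group 2b to group 3 exceeded that from group 1 to group 2a by 1.37 on the log2 scale, by the test of the difference itself (edgeR adjusted p = 0.0353).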

How the results depend on the processing

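The higher NR1H3, ABCG1 and APOE in lymphocyte-enriched samples passed the threshold under all alternatives run for them. The number of the 8 genes called there was 4, with 3 to 5 under other settings and 3 to 6 with 1 sample left out (6 without group 3 replicate 5). ABCA1 in group 3 against group 2b ranged from -1.44 to -1.19 with 1 sample left out and from -1.41 to -1.24 under the other settings. For group 2a against group 1, DESeq2 called 1 of the 8 genes (MYLIP) and 1 pathway gene; all 4 groups in 1 fit called 1 pathway gene, and DESeq2 with all 4 groups over all genes, chosen after seeing the data, called 3. For group 3 against group 2b, DESeq2 called 2 pathway genes (SCARB1 and HSD17B7), that added fit 1, a count of at least 10 in every sample 1 and limma 1 (SCARB1 in each), with 0 to 2 when a sample was left out (2, SCARB1 and HSD17B7, without group 3 replicate 3). Asking also for an absolute log2 fold change of 1 or more left 9 of the 20 pathway genes called between area types (18 to 24 with 1 sample left out). HSD17B7 was lost with DV200 as a covariate, with all genes with any read and with limma (0 genes each), DESeq2 called 2, and leaving out a sample gave 0 to 1; without group 2a replicate 3 the 1 gene was PLTP. With DV200 as a covariate, ABCA1 and NR1H3 in group 2a against group 1 were reversed (-0.58 and -0.76). The sign of HMGCS1 was not stable: between area types it was 0.015 with DV200, 0.095 with the RNA quality number, and -0.16 to 0.054 with 1 sample left out, and in group 2a against group 1 it was -0.26 to 0.07 (0.067 without group 1 replicate 3). With the RNA quality number as a covariate, the values for group 3 against group 2b moved to 1.16 for NR1H3 and 2.00 for SQLE. Of the 5 genes most like ABCA1, 3 were found by Spearman's rank correlation and 0 from deviations from group means. The cause of these changes was not tested.

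The same replicate number stands for different dogs. Deviations of same-numbered samples correlated with -0.27 to 0.11 between groups 1 and 2a and with -0.07 to 0.14 between groups 2b and 3, and 0 of 5 samples correlated best with their own number in either pair. With the replicate number as a block, 3 of the 8 genes were called between area types, SREBF2 being lost (adjusted p = 0.0923), HSD17B7 was lost (0 genes), and ABCA1 in group 3 against group 2b was -1.24.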
